A study of Arabidopsis thaliana with 6 samples.

Results

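The regions described here are places far from annotated genes where anti-FLAG chromatin immunoprecipitation gave a peak both in Arabidopsis thaliana seedlings with FLAG-tagged CND1 and in untagged Col-0 seedlings. Overlapping peaks of the 4 ChIP libraries were joined, which gave 17347 merged regions, of which 4038 lay on the 5 nuclear chromosomes and held a peak of both CND1-FLAG libraries and of at least 1 Col-0 library. The first CND1-FLAG replicate 1 peak was annotated as distal intergenic in 364 of these 4038 shared regions, and these 364 are the members. They were chosen by their peak calls and by the authors' feature label, so their presence in both genotypes and their distance from annotated genes are descriptions and not results. The tagged plants carried pCND1-Flag in the cnd1-3 mutant background, and the Col-0 plants carried neither the tag nor, by their label, the mutation. All seedlings were fixed with 1% formaldehyde for 10 min, and each genotype gave 2 ChIP libraries and 1 input. The sources used here do not give the seedlings' age, the number of independent tagged lines or whether a genotype's libraries are from separate plants, so the spread between libraries may be technical.

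Plant chromosomes carry their genes mainly along the arms, while the regions around the centromeres are gene-poor and filled with transposons and their remains. In Arabidopsis this pericentromeric chromatin is compact and DNA-methylated, and many of its gene-like entries in an annotation are pseudogenes, copies that no longer give a working protein. An untagged plant has no FLAG epitope, so a ChIP peak in Col-0 marks chromatin that was recovered without the tagged protein. A region with a peak in both genotypes is therefore one where the tag was not needed for a peak to be called.

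The 364 regions held 1353 peaks of the 4 lists, of which 1333 were themselves labelled distal intergenic. Their median width was 725 bp, between 402 and 6328 bp, against 716 bp in the 3674 other shared regions. At least 2 kb were covered by 32 of them (8.79%), against 3.54% of the other shared regions. The assigned gene start lay at a median distance of 8847.5 bp, and 57.7% of the regions lay upstream of it. The members nearest the limit of the label lay 3026, 3029 and 3056 bp from their gene start, and the nearest shared regions outside it 2998, 2997 and 2995 bp. The first inside, at AT1G36675, had folds of 1.66, 1.79, 1.996 and 1.58 in CND1-FLAG replicates 1 and 2 and Col-0 replicates 1 and 2, and the first outside, at AT3G44805, had 2.23, 2.27, 2.38 and 2.29. Fold here is the authors' enrichment of a peak summit over its local background, and a region takes the highest fold of its peaks in a list.

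The members crowded around the centromeres. A window of 2.5 Mb on either side of the approximate centromere position held 305 of 364 (83.8%, 95% exact binomial interval 79.6 to 87.4, counting error only), against 313 of 3674 other shared regions (8.52%). The distal intergenic label alone goes with this position: 281 of 308 CND1-FLAG-specific distal intergenic regions (91.2%), which had a peak in both tagged lists and none in Col-0, lay in the same windows. So did 86.6% of all bases that lie more than 3 kb from both ends of every table gene other than a pseudogene. The members' share was thus near that of the sequence far from genes as a whole. Chromosomes 1 to 5 held 82, 58, 89, 43 and 92 members, of which 66, 46, 75, 40 and 78 lay in the windows. The share in the window ranged from 79.3% on chromosome 2 to 93.0% on chromosome 4. Within 1 Mb of the centre lay 125 members (34.3%), and within 5 Mb 345 (94.8%). The plot of position along the chromosomes shows the same gathering on each of the 5.

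**Figure D1:**
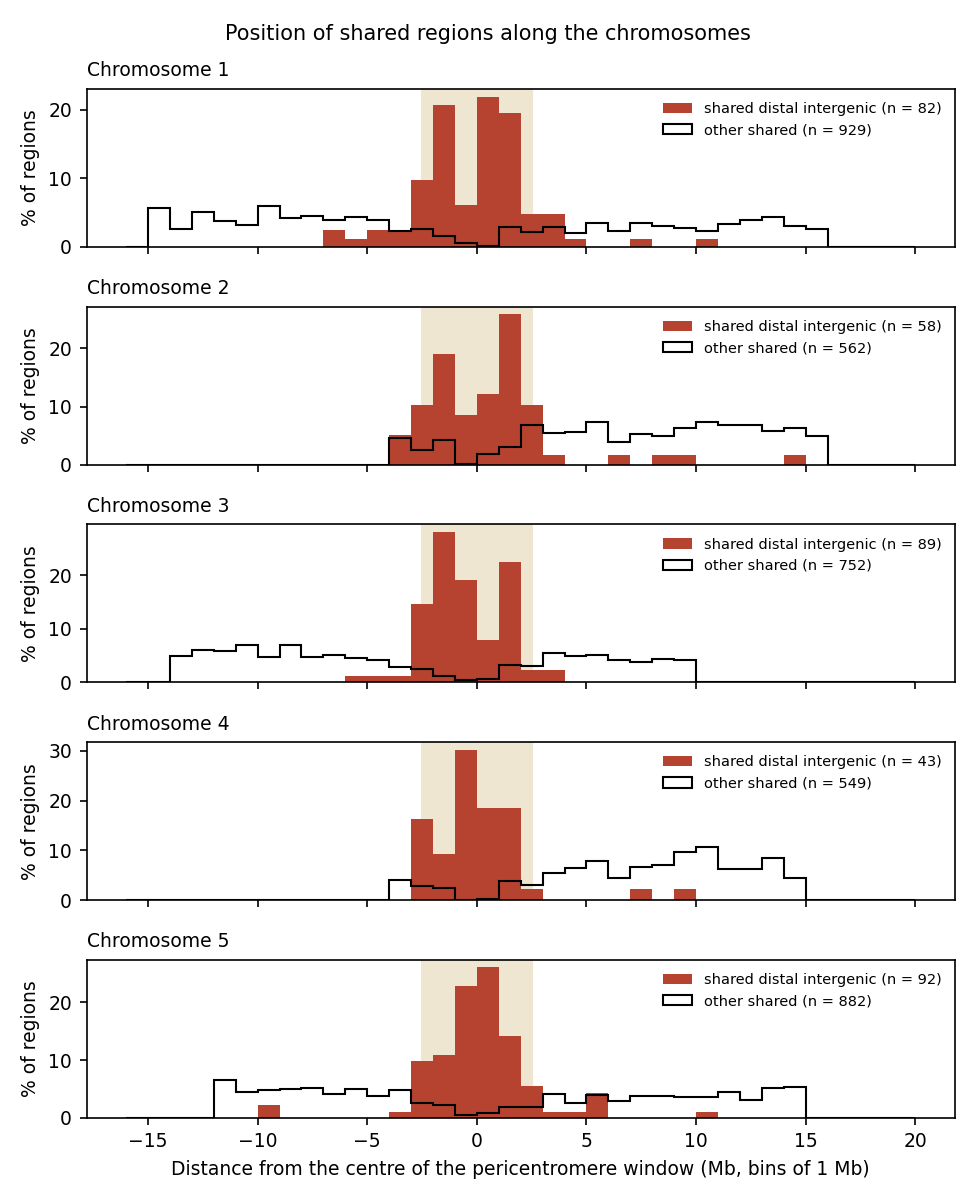
Share of the shared regions of each class (%, 1 Mb bins) against distance from the centre of the pericentromere window (Mb) on chromosomes 1 to 5, with filled bars for the 364 shared distal intergenic regions, a black outline for the 3674 other shared regions and shading for the 2.5 Mb windows. The filled bars gather in the shaded windows, which hold 83.8% of the distal regions, while the outline runs along the arms and is lowest near the centres.

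Most members sat on pseudogenes. In the RefSeq gene table of assembly TAIR10.1, 284 of 364 members (78.0%, exact interval 73.4 to 82.2) overlapped a pseudogene, 17 of them a transcribed one, and 144 (39.6%) lay wholly inside pseudogenes. The other 80 (22.0%) overlapped no gene of the table. None overlapped a protein-coding gene, which the distal intergenic label of the first peak favours. Of the 12573 nuclear genes that the authors' 4 lists assign to peaks, 0 are pseudogenes in the table, so no peak was assigned to a pseudogene and the regions on them stand as intergenic. Among the other shared regions 209 (5.69%) overlapped a pseudogene and 3332 (90.7%) a protein-coding gene, whereas 229 of the 308 CND1-FLAG-specific distal regions (74.4%) overlapped a pseudogene. Pseudogenes also fill much of the space in question: of tiles of 725 bp laid over all sequence more than 3 kb from the ends of other table genes, 58.4% overlapped one. Among the 333 members that lie in the same space the share was 77.8%. The gap was present inside the windows, with 77.1% of 288 members against 60.03% of tiles, and outside them, with 82.2% of 45 members against 45.1% of tiles. Members differ in width and wide ones meet a pseudogene more easily, whereas a summit is a single base. Peak summits showed the gap as well, since 68.8%, 68.2%, 67.4% and 67.9% of the summits of members of that space in CND1-FLAG replicates 1 and 2 and Col-0 replicates 1 and 2 lay inside a pseudogene, which takes up 46.1% of the bases there. These are shares over regions and bases, which are not replicates, and no test was made of them. The table does not say which pseudogenes derive from transposons.

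**Figure D2:**
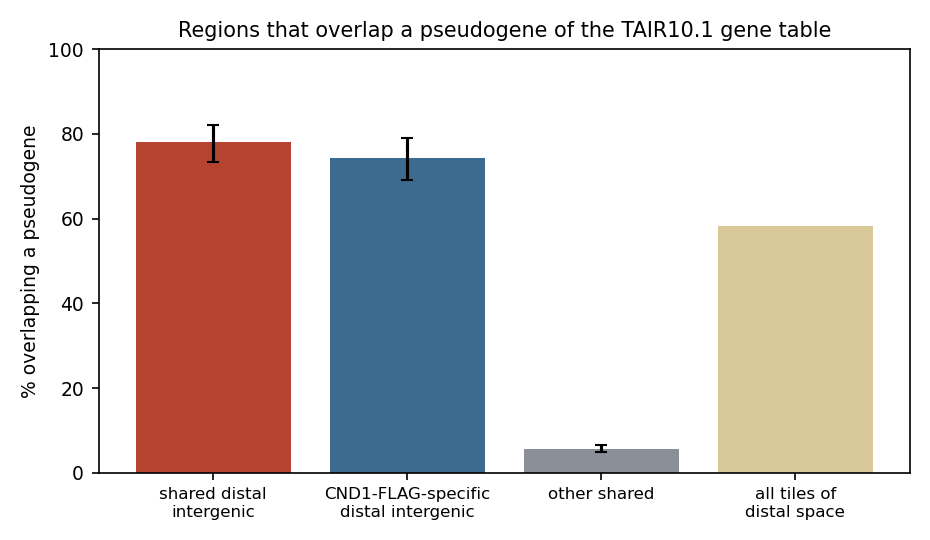
Share of regions that overlap a pseudogene of the TAIR10.1 gene table (%), by class, with 95% exact binomial intervals for the 3 classes of regions and, without interval, the share for all tiles of the space far from other table genes. Both distal classes, at 78.0% and 74.4%, stand above the tiles at 58.4%, and the other shared regions stand at 5.69%.

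The assigned genes say little about what the members cover, since the nearest annotated gene was often far away. The 364 members were assigned to 268 distinct genes, and 64 of these were assigned to at least 2 members. AT3G06315 took 6 members, all in the gene-poor centre of chromosome 3, the most distant of them 147376 bp away. The assigned gene was protein coding for 286 members, a long non-coding RNA for 58, a microRNA for 8 and a transfer RNA for 3. In the authors' descriptions the assigned gene had no protein match for 197 of the 364 members. It was described as uncharacterized or unknown for 12, as a zinc finger protein for 6, as defensin-like or cysteine-rich for 6, as a disease resistance protein for 5 and as transposon-related for 1. The members farthest from their gene start included chr3:13706766-13707167, 176677 bp from PER32, a secreted peroxidase gene, and 1 of 793 bp at 103786 bp from the same gene start.

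Most members stood alone. Of 359 neighbouring pairs 78 were within 10 kb of each other, with a median gap of 45352 bp over all pairs, so that 133 of 364 members had another within 10 kb, and 57 of them formed 17 groups of at least 3. The spacing of other regions was not measured. All but 1 of the 17 groups lay wholly inside the windows, and in 9 of the 17 every member overlapped a pseudogene. Of all members 83.8% lay in the windows and 78.0% overlapped a pseudogene, so these counts are not read as traits of groups. The largest group had 5 members at chr1:16512997-16524319, over AT1G43740, AT1G43745 and AT1G43750, which are all pseudogenes. Its member at chr1:16519872-16520297 overlapped no table gene. Folds of the group ran from 1.65 to 2.54 in CND1-FLAG replicate 1 and from 1.33 to 2.15 in replicate 2. They ran from 1.55 to 1.95 in Col-0 replicate 1 and from 1.501 to 1.73 in Col-0 replicate 2, so the ranges of the genotypes overlapped. Another group, of 4 members at chr1:15909207-15917696, lay over the neighbouring pseudogenes AT1G42450 and AT1G42460 and had a peak of all 4 lists in every member. A group of 3 beside SULTR1;1, which encodes a root sulfate transporter, had peaks of Col-0 replicate 1 and none of Col-0 replicate 2, with folds of 1.45 to 1.71 in the former.

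The enrichment of the members was modest. Median folds were 1.92 and 1.86 in CND1-FLAG replicates 1 and 2 and 1.68 and 1.67 in Col-0 replicates 1 and 2. The highest folds, all at 1 region, were 3.87, 4.59, 3.14 and 2.84 in the same order, and the lowest were 1.32, 1.33, 1.32 and 1.33. The other shared regions had median folds of 2.05, 1.99, 1.68 and 1.68 in the same order, with highest folds of 10.3 and 10.6 for CND1-FLAG and 5.63 and 5.30 for Col-0. Within a list, the distal minus other median was -0.12 and -0.13 for CND1-FLAG and 0.00046 and -0.016 for Col-0. The tagged medians rest on all 364 members and the Col-0 medians on the 290 and 243 members with a peak in that list. In the regions of all 4 lists, the same in each library, the differences were -0.19, -0.15, -0.024 and -0.056, so the members were lower in every list and by more in the tagged ones. A lower tagged fold was also seen in the CND1-FLAG-specific distal regions, with medians of 1.801 and 1.797 against 1.96 and 1.92 in the other CND1-FLAG-specific regions. Over all shared regions the mean difference was -0.125 ± 0.0028 for CND1-FLAG and -0.0080 ± 0.012 for Col-0 (SD, n = 2 each), a difference of -0.117 between the genotypes. Both tagged values lay below both Col-0 values. By exact permutation of the libraries (two-sided) p was 0.333, the smallest value that 2 against 2 allow, so this design cannot reach a threshold of 0.05. Both classes of region were kept by their peak calls in these same lists, so the difference and its p are descriptions. The classes also differ in position, since only 8.52% of the other shared regions lay in the windows. Inside the windows the members had median folds of 1.92, 1.86, 1.68 and 1.67. Other shared regions there had 1.97, 1.93, 1.699 and 1.73 in the same order. The gap there was smaller in the tagged lists and larger in the Col-0 lists. The part of position in the difference was not tested. A fold of at least 2 in both tagged lists was found in 65 of 364 members (17.9%), against 36.8% of all shared nuclear regions. Inside and outside the windows that share was 17.7% of 305 and 18.6% of 59 members.

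**Figure D3:**
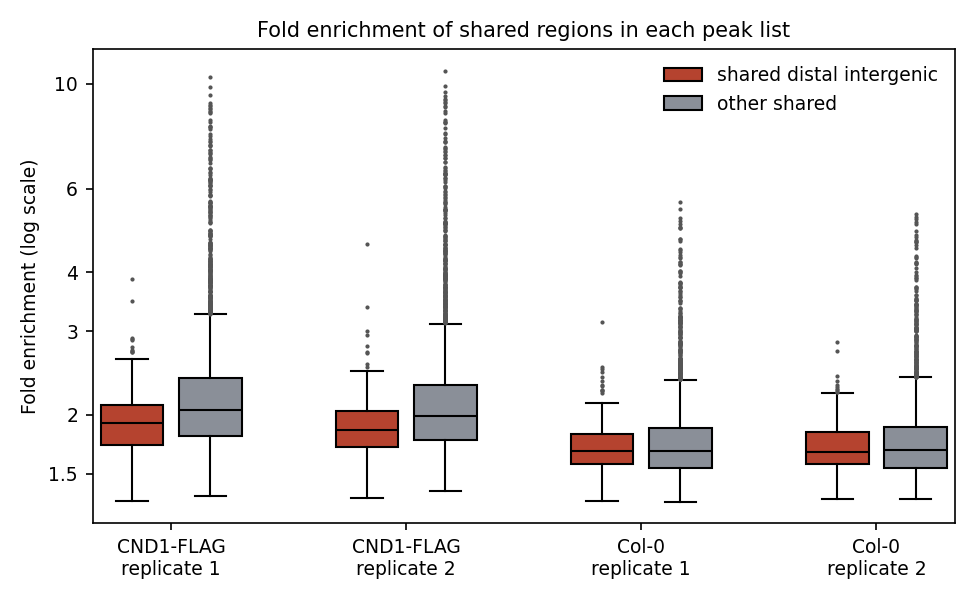
Fold enrichment (log scale) of shared regions in each of the 4 peak lists, with red boxes for shared distal intergenic regions and grey boxes for other shared regions. Boxes span the quartiles with the median as a line, whiskers reach 1.5 interquartile ranges and points lie beyond. The red medians are lower than the grey in both CND1-FLAG lists (1.92 against 2.05 and 1.86 against 1.99) and close to them in Col-0, where boxes rest on the 290 and 243 members with a peak.

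The rule asked for only 1 Col-0 list, and fewer members than other regions had both. Among nuclear regions of both tagged lists 50.2% had a peak in at least 1 Col-0 list, and among the 672 distal ones 364 had (54.2%). A peak of both Col-0 lists was present in 169 of 364 members (46.4%), against 60.1% of all shared regions and 61.4% of the other shared ones. Col-0 replicate 1 alone held 121 members (33.2%) and replicate 2 alone 74 (20.3%). In the 169 members with all 4 lists, both tagged folds lay above both Col-0 folds in 92 (54.4%), against 67.8% of all nuclear regions of 4 lists, and both lay below in 14 (8.28%), against 6.6%. The values of the genotypes overlapped in the other 63. The ratio of the mean tagged to the mean Col-0 fold had a median of 1.12 in members, between 0.729 and 1.70, and of 1.20 in the other shared regions of 4 lists. Inside the windows other shared regions had a median ratio of 1.15 and the members 1.12. Outside them the values were 1.21 and 1.12, so the gap was smaller inside the windows. Both tagged folds were on top in 54.7% of the 137 members inside, against 58.0% of 188 other shared regions there. Both lay below in 9.49% against 7.98%. Outside, both tagged folds were on top in 53.1% of 32 members, against 69.8% of 2069 other shared regions. Chromosome 4 had the lowest share of members with both tagged folds on top, 8 of 22 (36.4%), a median ratio of 1.03 and 5 members with both tagged folds below, while its other shared regions had a median ratio of 1.22. These comparisons use the contrast of the rule and are descriptions. The genotypes also differ in depth and input, which cannot be told apart from genotype here: the ChIP depth worked out from the summits was 84.6 and 76.0 fragments per kb in the tagged and 158 and 155 in the Col-0 libraries.

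**Figure D4:**
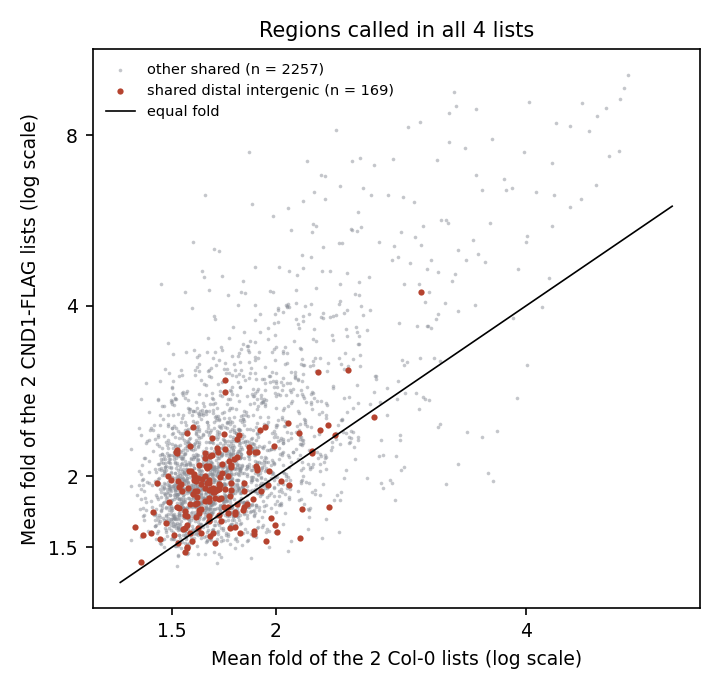
Mean fold of the CND1-FLAG lists against mean fold of the Col-0 lists (both log scales) for the regions called in all 4 lists, with the 169 shared distal intergenic regions in red and 2257 other shared regions in grey. Points above the line of equal fold were higher in CND1-FLAG. The red points stay near the line, with a median ratio of 1.12, and lack the high values of the grey ones.

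The 10 strongest members were ranked by the worst of their fold ranks over the 4 lists. Of these, 8 of 10 lay inside the windows, against 83.8% of all members. Only 4 of 10 overlapped a pseudogene, against 78.0% of all members. First was chr1:25696984-25698235, on the arm between the protein-coding genes AT1G68490 and AT1G68500, with folds of 3.87 and 4.59 in CND1-FLAG replicates 1 and 2 and 3.14 and 2.84 in Col-0 replicates 1 and 2. It overlaps no gene of the table, and its tagged folds lay above its Col-0 folds. At chr5:22137318-22137876, the folds were 2.74, 3.37, 2.25 and 2.25 in the same order. This region lies 3686 bp upstream of GH3.6, which encodes an enzyme that conjugates the hormone auxin to amino acids and is itself induced by auxin, and the genotypes did not overlap there either. At chr5:9639271-9639815, beside AT5G27340, the folds were 3.47, 2.70, 2.47 and 2.42, and the genotypes again did not overlap. At chr5:12149942-12150866, on the pseudogene AT5G32517 near the centre of chromosome 5, they were 2.88, 2.22, 2.52 and 2.73, so the Col-0 values lay between those of the tagged replicates. At chr4:3842672-3843244, on the pseudogene AT4G06656, the folds were 2.25, 2.47, 2.499 and 2.22, and in the same group, at chr4:3851546-3852058, they were 2.46, 2.37, 2.36 and 2.16. The genotypes overlapped at the first of these, and at the second both tagged folds were the higher by little.

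The widest member, 6328 bp at chr5:16699405-16705732, lies over the pseudogene AT5G41755 between the protein-coding genes AT5G41750 and AT5G41760. Its folds were 2.91 and 3.00 in CND1-FLAG and 1.81 and 1.67 in Col-0, and its ratio of 1.70 was the highest of the members in 4 lists. Next in ratio came chr5:8769822-8770384 at AT5G25280, with 2.71 and 2.94 against 1.83 and 1.65, and chr2:4237547-4239452 on the pseudogene AT2G10780, with 2.89 and 2.002 against 1.63 and 1.55. In all 3 both tagged values lay above both Col-0 values. The lowest ratios were all on chromosome 4. The region chr4:4030210-4030992, on the pseudogene AT4G06726, had folds of 1.49 and 1.62 in CND1-FLAG and 2.01 and 2.27 in Col-0. The region chr4:3747184-3748278, on the pseudogene AT4G06626, had 1.52 and 2.02 against 2.41 and 2.23. The third, chr4:1865164-1865798, which overlaps no table gene, had 1.55 and 1.53 against 1.88 and 2.01. In these 3 both Col-0 folds exceeded both tagged folds.

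Ranked by the worse of their tagged folds' ranks, the best members of chromosomes 2 and 3 were on pseudogenes as well. On chromosome 2 it was chr2:5581910-5583385, on AT2G13410, with folds of 2.31 and 2.23 in CND1-FLAG and 1.52 and 1.63 in Col-0. On chromosome 3 it was chr3:8848700-8849385, on AT3G24370, with 2.26 and 2.22 in CND1-FLAG, no peak of Col-0 replicate 1 and 1.84 in Col-0 replicate 2. Among members with a peak in 1 Col-0 list, the best tagged rank belonged to chr4:3055547-3056958, with 2.71 in each CND1-FLAG replicate and 2.001 in Col-0 replicate 1. A missing peak means that no peak was listed and gives no value for that library.

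Members more than 5 Mb from a centre were few, 19 in all, and 16 of these overlapped a pseudogene, while 3 overlapped no table gene. The exceptions were the strongest member, the one by GH3.6 and 1 upstream of CLE4, which encodes a small signalling peptide of the CLAVATA3 family. The CLE4 region had folds of 2.38 and 1.90 in CND1-FLAG and 1.33 in Col-0 replicate 2, with no peak in replicate 1. The region assigned to PDF1.2A, the gene of a plant defensin that serves as a marker of jasmonate and ethylene signalling, lies on the pseudogene AT5G44417 and had folds of 2.62 and 2.09 in CND1-FLAG and 1.996 in Col-0 replicate 1. A pair of regions beside ERF096, a gene of the ethylene response factor family, lies on the pseudogene AT5G43415. The first of the pair had folds of 1.56 and 1.44 in CND1-FLAG and 1.67 and 1.46 in Col-0, and the second 2.13 and 1.95 against 1.66 and 1.502. The first did not separate the genotypes and the second did. These arm genes other than GH3.6 were chosen after their values were seen.

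The members had fewer fragments at their summits than the other shared regions. The pile-up, the number of fragments over the summit as worked out from fold and p, had a median of 59 and 53 in CND1-FLAG replicates 1 and 2 and 101 and 103 in Col-0 replicates 1 and 2. In the other shared regions it was 92, 81, 146 and 146. The local background was set on a scale free of depth by dividing it by the lowest background of its list. On that scale members had a median of 1.05, 1.07, 1.02 and 1.05, against 1.61, 1.62, 1.57 and 1.57 for other shared regions. The background was at the lowest value of its list for 38.7% and 42.3% of members in CND1-FLAG and for 49.7% and 39.9% in Col-0, against 2.40% to 3.26% of other shared regions. The lower background of the members was thus present in all 4 lists. Inside the windows members had median relative backgrounds of 1.04, 1.04, 1.00 and 1.05, against 1.27, 1.28, 1.25 and 1.22 for other shared regions there. Their median pile-ups were 58, 52, 99.5 and 103, against 71, 64, 120.5 and 123. Both gaps were thus smaller inside the windows and present in all 4 lists. Each genotype gave 1 input, so the lists of a genotype may share a background and are not independent in this respect. The CND1-FLAG-specific distal regions were at the lowest value more often still, for 59.2% and 58.8% in CND1-FLAG replicates 1 and 2, with median pile-ups of 53 and 49. The median −log10 q of the members was 4.37 and 3.55 for CND1-FLAG and 3.13 and 3.24 for Col-0. In the other shared regions it was 7.69, 6.18, 4.25 and 4.41.

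A few members went the other way and had high backgrounds. Background of at least 4 times the list's lowest was found in 5, 5, 4 and 4 members of the 4 lists, against 1 other shared region in each, which reached 5.17, 5.06, 5.09 and 4.99 times. Among CND1-FLAG-specific distal regions it was found in 11 of 304 (3.62%) and 15 of 308 (4.87%) in CND1-FLAG replicates 1 and 2, against 1.37% of members in each, so high backgrounds were not particular to the members. In CND1-FLAG replicate 1 the highest member, chr3:13706766-13707167, lay between the pseudogenes AT3G33084 and AT3G33076 and had 6.85 times the lowest background, and the other lists gave 6.80, 5.56 and 5.53 there. Its folds were 1.596, 1.55, 1.37 and 1.39, so the tagged values were slightly higher. Of the other members, 3 belonged to a run of 4 members at chr4:3990916-3995695 on the pseudogenes AT4G06712 and AT4G06714. Across that run folds were 1.32 to 2.17 in CND1-FLAG replicate 1, 1.51 to 2.25 in replicate 2, 1.36 to 1.80 in Col-0 replicate 1 and 1.33 to 1.92 in Col-0 replicate 2. The genotypes overlapped across the run. The remaining member of high background was chr4:3055547-3056958, named above as the best by tagged rank among members with 1 Col-0 list. Its background was 4.24 and 4.27 times the lowest in CND1-FLAG replicates 1 and 2 and 3.89 times in Col-0 replicate 1.

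**Figure D5:**
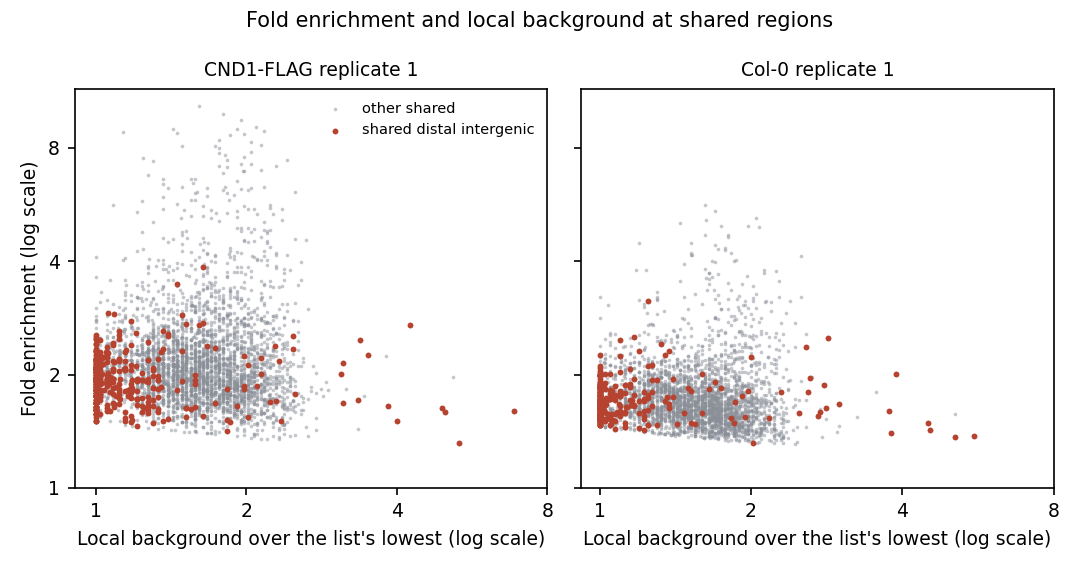
Fold enrichment against local background over the lowest background of the list (both log scales) in CND1-FLAG replicate 1 and Col-0 replicate 1, with shared distal intergenic regions in red and other shared regions in grey. The red points crowd at the lowest background, where 38.7% and 49.7% of them lie, and a few stand alone at the right with backgrounds of 4 times or more and folds under 3.

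Summits of the members were placed less tightly than those of other shared regions. Between CND1-FLAG replicates the strongest summits of a member lay a median of 90 bp apart, against 42 bp in the other shared regions, and between Col-0 replicates 77 bp, against 41 bp. Between genotypes the distance was 79 to 103 bp, against 53 to 56 bp. Fold was also less alike between replicates: Spearman's rho across regions was 0.493 for CND1-FLAG (364 regions) and 0.532 for Col-0 (169), against 0.716 and 0.762 in the other shared regions. Between genotypes rho of fold was 0.2 to 0.32 in members and 0.390 to 0.410 in the other shared regions. Local background was more alike than fold, with rho of 0.810 and 0.856 within and 0.627 to 0.689 between genotypes. In the other shared regions rho of background was higher, 0.915 and 0.912 within and 0.709 to 0.714 between genotypes. The replicates of a genotype have 1 input, and regions are not replicates, so these values are descriptions.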

How the data were processed

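The submitters' processing notes name fastp 0.19.11, BWA 0.7.12, MACS2 2.1.0 and the build TAIR10. The sources used here give neither the input nor the threshold of a list. Inputs were not analysed here. The authors' signal value, per the file headers, is a ratio (fold over local background). The authors deposited p-values and q-values as −log10 values, an integer score, and positions, widths and distances in bp with a ChIPseeker annotation. Lists held 13044 and 10538 peaks (CND1-FLAG) and 6152 and 5722 (Col-0).

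Lines that gave the summits of 1 interval became 1 peak, and peaks overlapping by 1 bp or more became 1 region. Members and lists were chosen with earlier results of these data known. Pile-up and background were solved from fold and p. Pile-ups were whole (tolerance 0.02) for 99.86% to 100% of summits after Col-0 scale factors of 0.723 and 0.739, which were found in the data. For Col-0 the solution nearest a whole number was taken, so the wholeness there is partly built in. Fragments per kb carry no counting interval. On simulated lists 107 of 107 members were found, with 0 false ones, and pile-ups were recovered for 200 of 200 unscaled summits and 195 of 200 scaled. The scale was given in the simulation, so finding it was not tested.

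The gene table is of TAIR10.1 and the files of TAIR10. The coordinates were compared gene by gene before overlaps were counted: all 12573 nuclear genes the lists assign lay inside the table's span of the same gene, and 86.4% shared its start or end. None of the table's coordinates is given here. Pericentromere windows are approximate and were not taken from the files.

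Regions named are the 10 best by worst fold rank in 4 lists, the 5 widest, the 5 farthest from their gene, the 3 best with 1 Col-0 list, the best of each chromosome, the 3 highest and 3 lowest ratios and groups of 3 within 10 kb. Those that matter are given in full. Exact permutation was over libraries. Python 3.11.15, numpy 2.4.6, pandas 2.3.3, scipy 1.17.1 and matplotlib 3.10.9 were used.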

Additional observations from a re-analysis of the deposited data

How the results depend on the processing

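Of the 7 values recomputed only the difference between genotypes has a sign, and it stayed negative in all alternatives. The others are a count, shares and medians, which cannot reverse, and several of them changed much. The main setting gave 364 regions, 9.01% of shared regions, with 46.4% in both Col-0 lists. With −log10 q of at least 5, 39 regions were left, 3.13% of shared regions, with 59.0% in both Col-0 lists and mean median folds of 2.25 (CND1-FLAG) and 1.95 (Col-0). With fold of at least 2, 19 regions were left, 3.83% of shared regions, with 89.5% in the windows, 52.6% in both Col-0 lists and median folds of 2.41 and 2.26. With reciprocal overlap of 50% the distal share was 7.58% and the Col-0 median fold 1.70. In windows of 1 Mb the share was 34.3%. Leaving out 1 library gave 241 to 562 regions, 7.72% to 10.8% of shared regions, 81.7% to 85.1% in the windows, 39.7% to 42.0% in both Col-0 lists, and median folds of 1.84 to 1.89 and 1.67 to 1.68. The count was 562 without CND1-FLAG replicate 2, a smaller requirement on peaks, and 241 without Col-0 replicate 1. Without 1 Col-0 library no share in both exists. The difference between genotypes was -0.51 to -0.11 in all alternatives, and -0.131 in regions of 4 lists.

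Deviations of same-numbered libraries correlated at -0.024 over 2426 regions, so no pairing by replicate number was seen. This value cannot tell whether the libraries were handled in pairs. With the replicate block the difference stayed -0.117, with an exact p of 0.5, the smallest possible. Depth differed between genotypes, and its part in the values was not tested.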
